A study of Rattus norvegicus with 6 samples.

Results

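The mitochondrial ribosomal proteins were taken as the protein-coding genes whose symbol begins with Mrpl or Mrps followed by a digit. The rule found 76 genes of the 34156 in the deposited count table, 45 named for the large subunit and 31 for the small subunit. They were compared in RNA-seq libraries of RA-FLS from rat, which are fibroblast-like synoviocytes, the fibroblasts of the joint lining. The labels give rheumatoid arthritis as the disease state and WT as the genotype. The TNF-α group (n = 3) received 10 ng/mL TNF-α, and the TNF-α+EMO group (n = 3) received the same TNF-α dose and 80 μmol/L EMO (emodin, a plant anthraquinone), so both groups carry TNF-α and no untreated cells enter the comparison. The labels give day 5 for every library, whereas the study's methods state a shorter incubation, and the difference could not be resolved. The RA-FLS were bought as a line and grown in culture. The study's methods call the replicates biological without saying how the cultures were kept apart. The p-values therefore measure the spread between these libraries.

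Mitochondria keep their own ribosome, which makes the few hydrophobic subunits of the respiratory chain and of ATP synthase that are encoded in mitochondrial DNA. Its RNAs are transcribed inside the organelle, but every one of its proteins is encoded in the nucleus, made in the cytosol and imported. The large subunit joins amino acids and passes the new chain out through an exit tunnel, and the small subunit reads the mRNA. Some of the proteins descend from those of bacterial ribosomes and the others exist only in mitochondria.

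The RefSeq promoter table (build GRCr8, 250 bases before to 50 bases after each transcription start) held a window for 59 of the 76 genes. The last 100 bases before the start are shown for the genes that rose most in each subunit (Mrps18b and Mrpl57), for Mrpl10 and Mrpl17, which hold the NRF1 motif and belong to the factor-binding stalk and the exit tunnel, and for the genes that fell most in each subunit (Mrpl28 and Mrps6). Capitals mark the letters of the NRF1 motif (CGCANGCG), the ETS motif (CCGGAAG) or the E-box (CACGTG), on either strand. The windows lie at chr20:2842906-2843005 (plus strand) for Mrps18b, chr15:36086357-36086456 (plus) for Mrpl57, chr10:82522370-82522469 (plus) for Mrpl10, chr1:169575700-169575799 (minus) for Mrpl17, chr10:15653079-15653178 (plus) for Mrpl28 and chr11:44778567-44778666 (plus) for Mrps6.
Mrps18b: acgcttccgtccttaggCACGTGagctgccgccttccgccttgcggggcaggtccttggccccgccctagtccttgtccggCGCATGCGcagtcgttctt
Mrpl57: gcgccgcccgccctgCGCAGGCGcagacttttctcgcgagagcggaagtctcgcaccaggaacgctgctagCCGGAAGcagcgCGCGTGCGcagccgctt
Mrpl10: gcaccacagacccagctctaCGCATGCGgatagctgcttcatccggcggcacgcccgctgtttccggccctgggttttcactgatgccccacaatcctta
Mrpl17: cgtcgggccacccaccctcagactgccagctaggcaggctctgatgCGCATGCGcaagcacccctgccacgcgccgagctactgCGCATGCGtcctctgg
Mrpl28: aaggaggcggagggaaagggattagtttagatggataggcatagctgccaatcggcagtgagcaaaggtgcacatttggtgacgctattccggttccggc
Mrps6: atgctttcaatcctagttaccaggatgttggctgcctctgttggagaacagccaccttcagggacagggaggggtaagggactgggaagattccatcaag

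Over the whole 300-base windows, the NRF1 motif was found in 15 of the 59 promoters (25.4%), against 8.23% of all promoters in the table and 17.4% of those of genes tested here. NRF1 and the ETS factor GABP (also called NRF2) are transcription factors known for regulating nuclear genes of mitochondria. The ETS motif was found in 20 of the 59 (33.9%), against 9.22% of all promoters and 18.4% of those of genes tested. The motif of YY1 (AAGATGGCG) was found in 9 (15.3%), against 1.93% and 4.04%. The CCAAT box bound by NF-Y was found in 26 (44.1%), against 37.7% and 38.5%, and the E-box in 5 (8.47%), against 6.65% and 9.52%. The ETS motif was present in 16 of 41 promoters of genes called higher with EMO and in 3 of 17 promoters of the other tested genes, whereas the NRF1 motif was present in 11 of 41 and 4 of 17. These shares are descriptions of the letters in the windows. Neither Mrpl28 nor Mrps6 holds the NRF1, ETS, YY1 or E-box letters in the last 100 bases before its start. The same is true of many genes that rose, among them Mrps10, Mrps23, Mrpl47 and Mrpl54, so this absence is not particular to genes that fell. Mrpl10 and Mrpl17 were picked for holding the NRF1 motif.

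The libraries held 16813322 to 17794455 counts on genes, and 12566 to 13365 genes reached 10 counts in a library. The 3 TNF-α+EMO libraries were less alike than the 3 TNF-α libraries. A chi-square over the counts, divided by the number of genes, came to 4.62 to 5.73 for pairs of TNF-α libraries, to 6.27 for TNF-α+EMO replicates 1 and 2, and to 23.5 and 15.1 for replicate 3 with each of these, so TNF-α+EMO replicate 3 stood apart, and results that rest on it are given with and without it. No pair of libraries agreed within sampling noise. Of the fibroblast markers listed for these cells, all 7 tested were called lower with EMO (adjusted p under 0.05 by edgeR). Over all 13614 genes tested, 41.4% were called lower and 39.4% higher. The summed level of the fibroblast markers fell from 200432 to 220552 normalized counts in the TNF-α libraries to 35127 to 37808 with EMO. Thy1, Pdpn and Prg4, which also define these cells, were at or near 0 in all 6 libraries. The 6 proliferation genes listed were all lower as well, beside the 41.4% of all genes (summed level 29179 to 29923 against 5557 to 5893). The macrophage markers Ptprc, Adgre1 and Cd163 were at or near 0 in both groups, as were the 3 T cell markers, and the macrophage list's sum was 1200 to 1301 and 734 to 804. The other well-measured macrophage markers moved in opposite directions, Cd68 rising from 153 ± 14.7 to 256 ± 11.3 (log2 fold change 0.75) and Cd14 falling from 1093 ± 57.8 to 510 ± 41.2 (-1.10). Of the endothelial list 1 of 3 genes was tested and was lower (sum 69.2 to 76.5 and 13.2 to 21.7), and of the epithelial list Krt8 was tested and was lower (sum 9950 to 10807 and 1968 to 2304), with Epcam at 0. The part of these shifts in the results was not tested, and in bulk RNA fewer cells of a type and less RNA per cell cannot be told apart.

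Of the 76 genes, 73 passed the filter of at least 10 counts in at least 3 libraries. The 3 that did not were Mrpl36, with 2, 0 and 5 counts without EMO and 5, 8 and 9 with it, and both rows named Mrps21l, which look by name like copies of Mrps21 and held 0 to 4 counts. Most of the tested genes rose with EMO. By edgeR's quasi-likelihood test with adjustment over all 13614 genes tested, 51 of the 73 (69.9%) were higher with EMO at an adjusted p under 0.05, where the share over all genes was 39.4%, and 6 (8.22%) were lower, where it was 41.4%. The remaining 16 were not called. In 52 genes every TNF-α+EMO library lay above every TNF-α library, and in 5 every one lay below, against 40.3% and 42.5% of all genes. At a log2 fold change beyond 1 as well, 22 genes were higher and 0 lower, against 19.5% and 27.8% of all genes. The median log2 fold change was 0.60, beside -0.01 over all genes tested, and the values ran from -0.59 to 2.17. This comparison is not matched for gene length. The 34 members under 1000 bases had a median of 0.51, beside 0.59 over all such genes with a mean of at least 50 normalized counts. Longer members had 0.74, beside -0.03. Without TNF-α+EMO replicate 3, 50 were higher and 10 lower, with a median of 0.56.

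**Figure D1:**
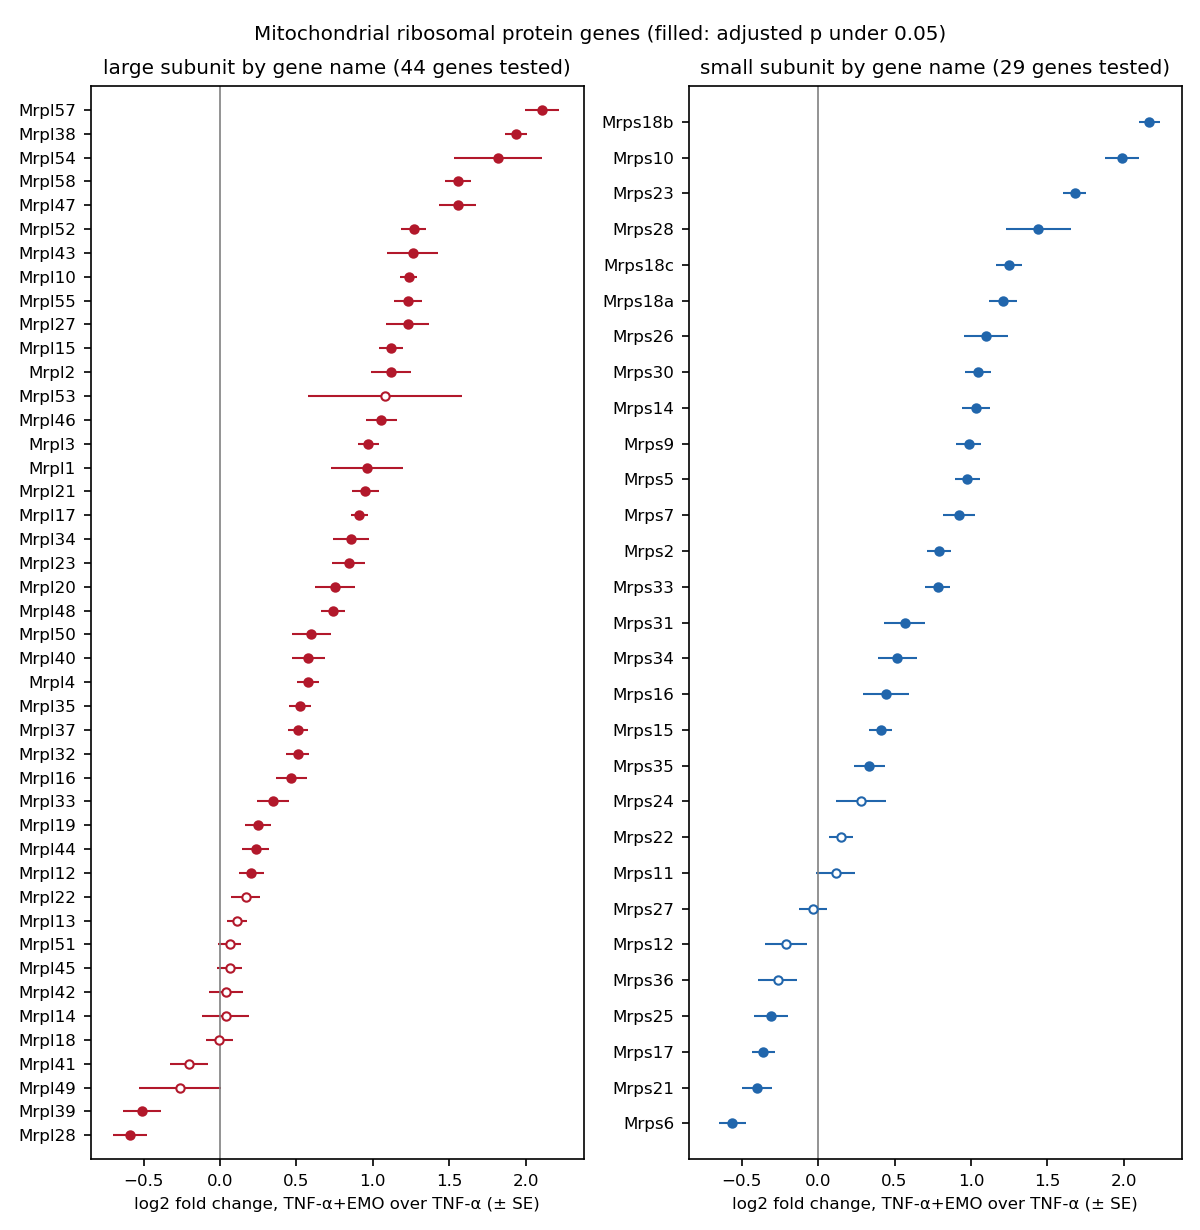
Log2 fold change of TNF-α+EMO over TNF-α for the 44 large and 29 small subunit genes tested, with bars of 1 standard error and filled points for genes with an adjusted p under 0.05. In both panels most points lie right of 0, with Mrpl57 (2.11) and Mrps18b (2.17) at the top and Mrpl28 (-0.59) and Mrps6 (-0.56) at the bottom.

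Together the genes took a larger part of the counts with EMO. Their summed normalized count (counts scaled by edgeR's TMM library sizes) was 48264 ± 1632 in the TNF-α group and 82264 ± 6774 in the TNF-α+EMO group (SD, n = 3 each), which is 0.292% ± 0.0111 and 0.460% ± 0.0323 of all counts. TNF-α+EMO replicate 3 had the highest sum. The median coefficient of variation over the 73 genes was 5.77% among TNF-α libraries and 9.45% among TNF-α+EMO libraries, where it reached 35.2% in Mrpl54, 35.3% in Mrpl49 and 55.6% in Mrpl53.

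Among the 73 genes, Mrps18b rose most (chromosome 20, 3344870 to 3350927 in Rnor_6.0, the build of all gene coordinates given). It encodes a small subunit protein and is 1 of 3 paralogues related to bacterial protein S18. Its normalized counts were 726, 783 and 796 without EMO and 3546, 3531 and 3273 with it. Every EMO library was far above the TNF-α libraries, a 4.49-fold rise (log2 fold change 2.17, standard error 0.07, adjusted p = 2.3e-10 by edgeR). Its paralogue Mrps18c, the form that takes the place of the bacterial protein, rose from 302, 289.6 and 324 to 693, 744 and 736 (1.25, standard error 0.08). Mrps18a, which carries a small subunit name although the protein sits in the large subunit, had 737, 662 and 743 normalized counts without EMO and 1499.7, 1585 and 1869 with it (1.21, standard error 0.09). All 3 paralogues were therefore called higher, with no overlap between the groups. The printed promoter window of Mrps18b holds an NRF1 and an E-box match.

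Mrpl57 (chromosome 15, 38095803 to 38097835), a small protein found only in mitochondrial ribosomes, had the largest rise of the large subunit genes under the name rule. Its counts were 298, 255 and 336 without EMO and 1188, 1255 and 1388 with it, a 4.30-fold rise (log2 fold change 2.11, standard error 0.11, adjusted p = 1.3e-08 by edgeR). The groups were well apart. The gene overlaps Ska3, on the other strand, by 1073 bases, and Ska3 reached at most 773 counts in a library, so reads of these genes cannot be fully told apart without strand. Mrpl54, another protein restricted to mitochondria, rose from 636, 475 and 592 to 1546, 1647 and 2816 (log2 fold change 1.82, standard error 0.29, adjusted p = 0.0021 by edgeR). TNF-α+EMO replicate 3 was much the highest, and without it the log2 fold change was 1.49.

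Among the small subunit genes, 3 more followed Mrps18b at the top. Mrps10 (chromosome 9, 15637268 to 15646846), a protein of the subunit's head, rose from 156, 180.4 and 135 to 621, 634 and 616 normalized counts, a 3.96-fold rise (log2 fold change 1.99, standard error 0.11, adjusted p = 2.5e-08 by edgeR). The EMO libraries differed from each other by less than the TNF-α libraries did. Mrps23, a mitochondria-specific protein, rose from 689.6, 669.9 and 665 to 2114, 2009 and 2355 (1.68, standard error 0.08). Mrps28 rose from 234, 182 and 202 to 438, 486 and 755 (1.44, standard error 0.21), and to 1.16 without TNF-α+EMO replicate 3, the highest of its group.

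The head of the small subunit is the part that grips the tRNAs and moves during translocation. Of its 8 listed genes, all under the name rule, 7 rose and none fell, with a median log2 fold change of 0.85. Mitoribosomal genes under other kinds of name were not in this list. Of the 5 of those that were tested, 3 rose and 2 fell, and the 2 were the small subunit genes Ptcd3 and Dap3 (-1.44 and -0.26). Among all 73 tested genes 69.9% rose and 8.22% fell, with a median of 0.60, and over all genes 39.4% rose and 41.4% fell. Whether the head group or the following groups by role differ from the 73 genes was not tested. Mrps7, which binds ribosomal RNA in the head, had 677, 709.9 and 689.7 normalized counts without EMO and 1139.7, 1257 and 1533 with it (0.92, standard error 0.10). The part of the gene that overlaps Gga3 on the other strand spans 772 bases. Mrps33 rose from 907, 813 and 993 to 1499, 1523 and 1642 (0.78, standard error 0.08), and Mrps9, Mrps14, Mrps31 and Mrps35 rose by log2 fold changes of 0.98, 1.03, 0.57 and 0.33. Mrps24 was not called (497, 518 and 789 against 517, 491 and 480.3), and its groups overlapped.

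Mrps12, the protein of the decoding centre, which checks the match of codon and anticodon, was not called. Its normalized counts were 771, 719.7 and 712 without EMO and 513, 605 and 784 with it (log2 fold change -0.21, standard error 0.14, adjusted p = 0.17 by edgeR). TNF-α+EMO replicates 1 and 2 lay below all TNF-α libraries and replicate 3 above them, and without replicate 3 the gene was called lower (-0.40, adjusted p = 0.00039 by edgeR). It was also called lower under scaling by library totals (adjusted p = 0.037 by edgeR). Its start lies 16 bases from that of Sars2, the mitochondrial seryl-tRNA synthetase, which is read in the other direction and was higher with EMO (0.76).

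Other small subunit genes were chosen for description because loss of the gene in people is known to impair mitochondrial translation. Mrps2 rose from 750.4, 730.4 and 739 to 1255, 1393 and 1192 (0.79, standard error 0.08), with no overlap. Mrps16 rose from 402, 423 and 441 to 470.3, 522 and 731 (0.44, standard error 0.15, adjusted p = 0.019 by edgeR), and Mrps34 from 701, 654 and 638 to 777, 937 and 1141 (0.52, standard error 0.13). Both were highest in TNF-α+EMO replicate 3, and without it their log2 fold changes were 0.23 and 0.36. The call of Mrps16 was lost in 3 of 13 alternative fits (adjusted p 0.050 to 0.064 by edgeR). Mrps22 was not called (563, 538 and 608 against 639, 642 and 613, log2 fold change 0.15, adjusted p = 0.11), although every EMO library lay just above every TNF-α library.

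Mrps30 and Mrps36 are named for the small subunit but belong elsewhere. The Mrps30 protein sits in the large subunit, and its counts rose from 805, 679 and 769 to 1593, 1646 and 1412 (1.05, standard error 0.09). Mrps36 is a component of the 2-oxoglutarate dehydrogenase complex of the citric acid cycle. It had 359, 311 and 375 normalized counts without EMO and 259, 275 and 335 with it (-0.27, standard error 0.13, adjusted p = 0.072 by edgeR), and the groups overlapped. Without TNF-α+EMO replicate 3 it was called lower (-0.39). The same call was made without TNF-α replicate 2 and under scaling by library totals or by upper quartiles. Over these 4 fits the adjusted p was 0.0047 to 0.049 by edgeR.

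In the large subunit, the genes of the peptidyl transferase core, where peptide bonds are made, all rose. All 5 listed genes were called higher, beside 69.9% of the 73 tested genes and 39.4% of all genes. The median log2 fold change was 0.97. In each of them every TNF-α+EMO library lay above every TNF-α library, which held for 40.3% of all genes. Mrpl3 had 843, 892 and 860.2 normalized counts without EMO and 1642, 1642 and 1799.9 with it (log2 fold change 0.97, standard error 0.07, adjusted p = 1.7e-07 by edgeR). Mrpl2 and Mrpl27 rose by 1.12 and 1.23, and Mrpl4 and Mrpl16 by 0.57 and 0.47.

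The central protuberance is the crest of the large subunit that contacts the head of the small subunit. Of its 6 listed genes, 5 rose, with a median of 0.90, beside 69.9% of the 73 tested genes and 39.4% of all genes. Mrpl38 (chromosome 10, 104682374 to 104689178) rose from 561, 557 and 618 to 2089.7, 2239.9 and 2323 normalized counts, a 3.83-fold rise (log2 fold change 1.94, standard error 0.07, adjusted p = 1.1e-09 by edgeR). Mrpl58, a peptidyl-tRNA hydrolase built into the subunit that can free stalled chains, rose from 585, 555 and 583 to 1582, 1599 and 1882 (1.56, standard error 0.08). Both were well separated from their controls. Mrpl40, Mrpl46 and Mrpl48 rose by 0.58, 1.05 and 0.74. Mrpl18, which binds structural RNA in the protuberance, was the exception, with 877, 896 and 889 against 776, 938 and 940.2 (-0.0045, standard error 0.09), and its sign depended on which library was left out.

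The exit tunnel group was mixed. Of the 7 listed genes that the rule holds, 4 rose and 1 fell, and 2 were not called, with a median of 0.23. Among the 73 tested genes 69.9% rose and 8.22% fell, and over all genes 39.4% and 41.4%. Mrpl47 (chromosome 2, 119128309 to 119139451) rose from 127, 155 and 163 to 444, 437 and 426 (log2 fold change 1.55, standard error 0.12, adjusted p = 3.5e-07 by edgeR), but it overlaps Actl6a on the other strand by 1443 bases, and Actl6a reached 931 counts in a library. Mrpl17 rose from 2214, 2081 and 2150.0 to 4141, 4002 and 3983 (0.91, standard error 0.06), and Mrpl23 rose by 0.84. Mrpl44, a protein of the tunnel region with a nuclease-like fold, rose from 634, 625 and 648 to 667, 799 and 774 (0.23, adjusted p = 0.029 by edgeR), a call that was lost in 7 of 13 alternative fits. Mrpl45, which ties the tunnel exit to the inner membrane, did not differ beyond the spread (1473, 1279 and 1427 against 1352, 1436 and 1578, log2 fold change 0.06, adjusted p = 0.48 by edgeR), and its direction turned under scaling by library totals. Mrpl39 fell and Mrpl22 was not called (0.17).

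Of the listed genes of the stalks that contact translation factors and the leaving tRNA, the rule holds 3. All 3 were called higher, beside 69.9% of the 73 tested genes and 39.4% of all genes. Mrpl10, the base of the factor-binding stalk, had 1546, 1485 and 1583 normalized counts without EMO and 3558, 3638 and 3657 with it, a 2.35-fold rise (log2 fold change 1.23, standard error 0.06, adjusted p = 5.4e-09 by edgeR), and its spread was small in both groups. Mrpl12, the mobile stalk protein that Mrpl10 holds, had 1571, 1472 and 1638 against 1635, 1758 and 2001 (0.20, standard error 0.08, adjusted p = 0.039 by edgeR). Here the lowest EMO library lay below the highest TNF-α library, and the call was lost in 10 of 13 alternative fits. Mrpl1, the protein of the stalk that releases tRNA, rose from 47.1, 30.2 and 41.9 to 77.4, 77.8 and 77.4 (0.96, standard error 0.23). A second row, LOC100359687, described as similar to L1, held 38.3, 40.0 and 48.7 and then 192, 248 and 244. The rows may share reads, and their sum rose 3.72-fold, from 82.0 ± 10.6 to 305 ± 31.5 (SD, n = 3 each).

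Of all 73 genes, 6 fell, and none by more than 0.59 on the log2 scale. Mrpl28 (chromosome 10, 15495684 to 15498295), related to bacterial L28, had 851, 799 and 936 normalized counts without EMO and 507, 540.3 and 672 with it (log2 fold change -0.59, standard error 0.11, adjusted p = 0.00057 by edgeR). Mrps6 (chromosome 11, 32211115 to 32263899), related to bacterial S6, had 669.9, 610.4 and 694 against 418, 442 and 478 (-0.56, standard error 0.09, adjusted p = 0.00014 by edgeR). In both genes every EMO library was lower than every TNF-α library. Mrpl39, a protein at the tunnel side related to threonyl-tRNA synthetases, had 242, 256 and 262 against 198, 166 and 169 (-0.51, standard error 0.12). Mrps21, related to bacterial S21, had 573, 580.2 and 617 against 430.1, 408 and 502 (-0.40, standard error 0.10). Mrps17, related to bacterial S17, had 728, 721 and 710.2 against 532, 569 and 583 (-0.36, standard error 0.08). These 3 were also separated without overlap. Mrps25 was called lower (1049.5, 944 and 1080.4 against 717, 788 and 975, log2 fold change -0.31, adjusted p = 0.025 by edgeR) although its groups overlapped, and 4 of 13 alternative fits did not call it.

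Among the genes that were not called, Mrpl41 and Mrpl49 had negative values. Mrpl41 had 592, 588 and 657 against 463, 489 and 644 (-0.20), and Mrpl49 had 155, 193 and 254 against 114, 157 and 231 (-0.26). Both were called lower without TNF-α+EMO replicate 3, and Mrpl41 also under scaling by library totals. Mrpl49 overlaps Syvn1 on the other strand by 551 bases, and Syvn1 held up to 4266 counts. Mrpl53 had few reads (6.87, 12.7 and 24.4 against 20.6, 21.5 and 50.9) and was not called in spite of a log2 fold change of 1.08 (standard error 0.50). Mrpl13 was not called at 0.11, and the log2 fold changes of Mrpl14, Mrpl42, Mrpl51, Mrps11 and Mrps27 ran from -0.03 to 0.11.

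Called higher outside the groups above were Mrpl15, Mrpl19, Mrpl20, Mrpl21, Mrpl32, Mrpl33, Mrpl34, Mrpl35, Mrpl37, Mrpl43, Mrpl50, Mrpl52, Mrpl55, Mrps5, Mrps15 and Mrps26, with log2 fold changes from 0.25 (Mrpl19) to 1.27 (Mrpl52). Mrpl52 rose from 1727, 1614 and 1594 to 3590.4, 3876 and 4419.8. In Mrpl43 (1104, 1029.8 and 1120.3 against 2112, 2361 and 3333) replicate 3 of TNF-α+EMO was again the highest, and the gene shares 48 bases with Twnk on the other strand.

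By level per kilobase of the deposited gene length, the most abundant large subunit mRNAs were Mrpl33 and Mrpl17, with means over the 6 libraries of 5138 and 3310 normalized counts per kilobase, and the most abundant of the small subunit names were Mrps33 and Mrps18a, with 2094 and 1318. Mrps18a held that place through its level with EMO (796 and 1841 per kilobase without and with it), and in the TNF-α group Mrps25 (1390.2) stood next to Mrps33 (1541). Mrpl33, a very short gene of 236 bases, had 982, 1094 and 1125 normalized counts without EMO and 1214, 1268 and 1592 with it (log2 fold change 0.35, standard error 0.10). The value was 0.21 without TNF-α+EMO replicate 3, and the call was lost under scaling by library totals (adjusted p = 0.056 by edgeR). Lengths this near the fragment size make the level per kilobase uncertain. Mrpl1 and Mrpl53 were the least abundant of the tested genes (52.8 and 63.4 per kilobase).

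The large and small subunits were then set against each other, beside 39.4% of all genes called higher and 41.4% called lower. Of the 44 large subunit genes tested, 32 rose and 2 fell, with a median log2 fold change of 0.67, and of the 29 small subunit genes 19 rose and 4 fell, with a median of 0.57. The medians differed by 0.10, and the quartiles were 0.20 and 1.12 for the large and 0.11 and 1.05 for the small subunit. Without TNF-α+EMO replicate 3 the difference turned to -0.08. When Mrps18a and Mrps30 were counted with the large subunit, where their proteins sit, and Mrps36 was left out, it was 0.20. Genes are not replicates of a condition, and no test was made of the difference.

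Summed per kilobase, large subunit mRNAs stood at 33348, 32368 and 34404 without EMO and 51264, 53722 and 64013 with it, a 1.69-fold rise. Small subunit mRNAs stood at 15660, 14720 and 15924, and 21923, 23167 and 25930, a 1.53-fold rise. Both sums were higher in every EMO library. The log2 ratio of large to small was 1.09, 1.14 and 1.11 without EMO and 1.23, 1.21 and 1.30 with it, so the groups did not overlap with or without replicate 3, and the means differed by 0.135 (0.107 without replicate 3). The most abundant genes weigh most in the sum. As a difference of median log2 levels the shift was 0.0622, and the values were 0.347, 0.362 and 0.200 against 0.371, 0.356 and 0.367, which overlap. Without scaling by length it was 0.0471, and 0.0174 without replicate 3 as well.

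**Figure D2:**
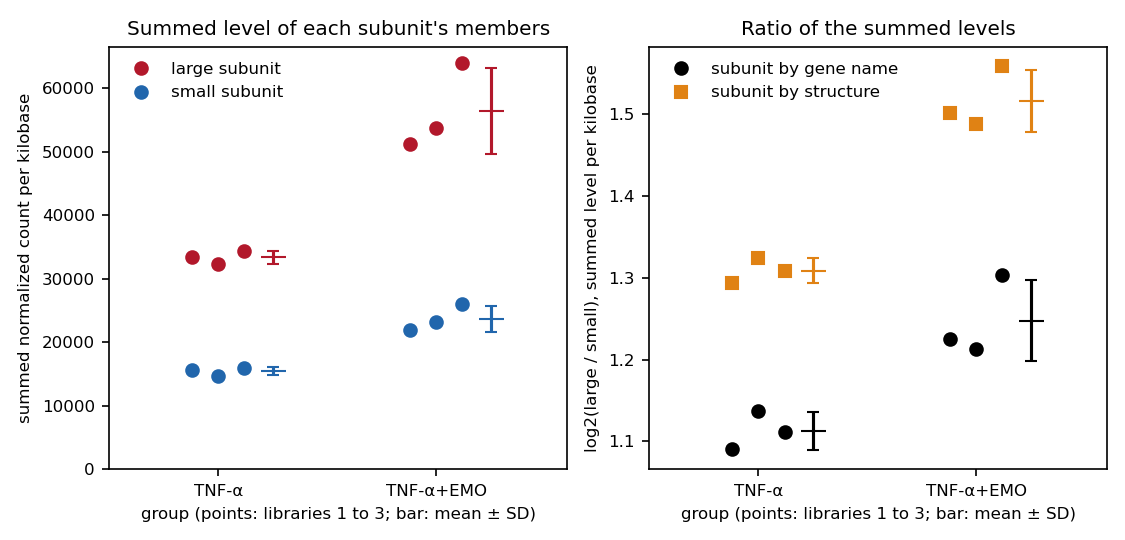
Left, summed normalized count per kilobase of the large and small subunit genes in each library, with mean ± SD beside the points, on an axis from 0. Right, log2 ratio of the sums with subunits by gene name or by structure, where all 3 TNF-α+EMO points lie above all 3 TNF-α points (1.21 to 1.30 against 1.09 to 1.14 by gene name).

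Genes descended from bacterial ribosomal proteins and those found only in mitochondria both rose more often than they fell. Over all genes tested, 39.4% rose and 41.4% fell. Of 41 tested genes with a bacterial relative, 30 rose and 4 fell, with a median log2 fold change of 0.75, and of 30 mitochondria-specific genes 19 rose and 2 fell, with a median of 0.57. The 30 mitochondria-specific genes include Mrps36, which was not called and whose protein belongs to another complex. Mrpl55 and Mrps28, which were assigned to neither class, rose. Among the large subunit genes 19 of 24 and 12 of 19 rose in these classes, and among the small subunit names 11 of 17 and 7 of 11.

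TNF-α+EMO replicate 3 departed from its group in the shorter genes. The log2 ratio of replicate 3 to the mean of replicates 1 and 2 was positive in 33 of the 34 genes under 1000 bases (median 0.36) and in 25 of the 39 longer genes (median 0.07). Across the 73 genes, which share the same libraries, Spearman's rho of this ratio with gene length was -0.59, and across the 11286 tested genes with a mean of at least 50 normalized counts it was -0.33, so the tilt was not limited to ribosomal genes. The largest departures were in Mrpl53 (1.27), Mrpl54 (0.82), Mrpl49 (0.77), Mrps28 (0.71) and Mrps24 (0.64), and the lowest was in Mrps30 (-0.20). The log2 fold change between groups had a rho with length of 0.15 over the 73 genes, where genes under 1000 bases had a median of 0.51 and longer genes 0.74. Over the 11286 genes the rho was -0.27, and the medians were 0.59 and -0.03, so short genes in general were higher with EMO. The cause of the departure was not tested.

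**Figure D3:**
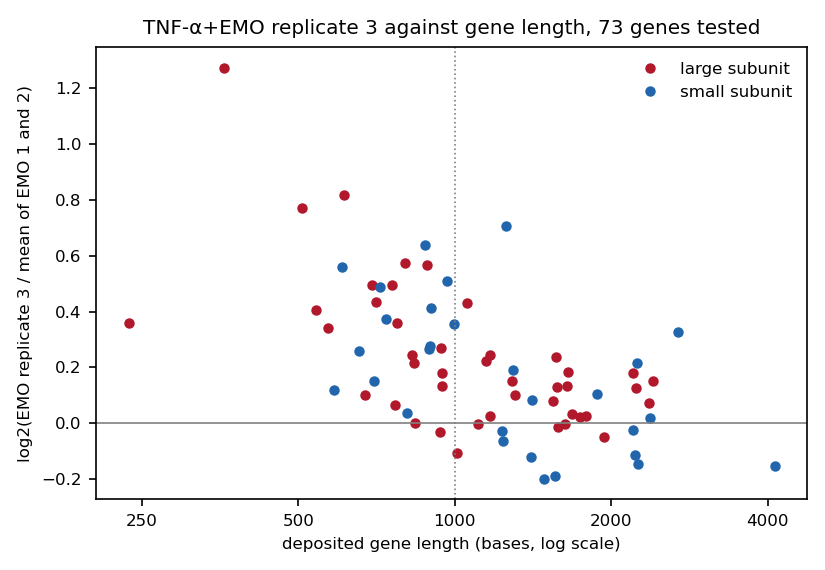
Log2 ratio of TNF-α+EMO replicate 3 to the mean of replicates 1 and 2 against deposited gene length on a log scale, for the 73 tested genes, with a dotted line at 1000 bases. Points left of the line lie almost all above 0, and points right of it lie on both sides of 0, with Mrps28 (0.71), Mrpl2 (0.43) and Mrps36 (0.33) the highest.

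Some of the genes share a start region with a neighbour read in the other direction. For 16 of the 73 tested genes (21.9%) another gene started within 1000 bases on the opposite strand, against 9.41% of the tested protein-coding genes. Mrpl46 and Mrps11 form such a pair with starts 72 bases apart. Mrpl46 rose by 1.05, from 387, 315 and 384 to 705, 803 and 748, and Mrps11 had 481, 401 and 516 against 419, 526 and 567 (0.11, not called). Most of the neighbours were called higher with EMO, beside 39.4% of all genes, and no neighbour was called lower. Among those higher were Lrrc46 beside Mrpl10 (0.93), Tcp1 beside Mrpl18 (0.57) and Pnpla7 beside Mrpl41 (1.03). Others were not called. Beside Mrps18b (2.17), Ppp1r10 had a log2 fold change of -0.05, and beside Mrpl47 (1.55), the respiratory complex gene Ndufb5 had -0.03. Beside Mrpl2 (1.12), Klc4 rose by 1.93, and Mrps27 and Ptcd2 were both near 0 (-0.03 and 0.01).

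Mitochondrial ribosomal protein rows that the name rule does not reach were examined by the same test. The symbols of 3 are written in lower case in the table. The row mrpl9 rose from 738, 763 and 833 to 1432, 1513 and 1669 normalized counts (log2 fold change 0.98), and mrpl11, a protein of the factor-binding stalk, from 1095, 1103 and 1226 to 1957, 2042 and 2147 (0.84). The row mrpl24, a protein by the exit tunnel, rose from 501, 433 and 444 to 1939, 2070.1 and 2234 (2.18, standard error 0.08). This value was slightly above that of Mrps18b (2.17), the highest under the name rule. A row described as L30, NEWGENE_1308196, varied too much within groups to be called (5.89, 206 and 44.8 against 194, 142 and 446). With these 4 rows added, the median log2 fold change was 0.75.

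Of 7 mitoribosomal proteins listed under other kinds of name, 5 were in the table and tested, and 3 rose and 2 fell, beside 39.4% and 41.4% of all genes. Ptcd3, a small subunit protein with RNA-binding repeats, had 1553, 1567 and 1659 normalized counts without EMO and 609.6, 609.9 and 541 with it (log2 fold change -1.44, standard error 0.08, adjusted p = 1.5e-08 by edgeR), a larger fall than that of any gene under the name rule. Dap3, a GTP-binding small subunit protein, fell by 0.26 on the log2 scale, and Chchd1, also of the small subunit, rose from 546, 493 and 554 to 1154, 1061 and 1275 (1.13).

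Most factors that assemble the ribosome also rose. Of 24 assembly factors tested, 18 rose (75%, beside 39.4% of all genes) and 2 fell (8.33%, beside 41.4%), with a median log2 fold change of 0.75. Fastkd2, an RNA-binding protein needed for the large subunit, rose from 256, 190.2 and 223 to 1053, 998 and 720.2 (2.05, standard error 0.16), and Mpv17l2, an inner membrane protein, rose from 436, 374 and 446 to 1308, 1284 and 1958 (1.86, standard error 0.17). Both sets of EMO libraries lay well above the TNF-α libraries. Mrm2, a methyltransferase of ribosomal RNA, fell (-0.80), as did Rbfa, a small subunit maturation factor named because it was the second of the 2 that fell (-0.28). Ybey was not called (-0.32).

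So did most translation factors of mitochondria. Of 16 tested, 12 rose (75%, beside the 39.4% of all genes) and 0 fell (beside 41.4%), with a median log2 fold change of 0.35. Tsfm, the exchange factor of the elongation factor, rose from 157, 115 and 145 to 278, 337 and 399 (1.28, standard error 0.17), and Lrpprc, which stabilises mitochondrial mRNAs, rose from 1777, 1847 and 1767 to 3865, 3537 and 3119 (0.96, standard error 0.08). Slirp, the partner of Lrpprc, and Mtrf1l, a release factor, were not called (-0.14 and -0.13).

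The RNAs that this ribosome reads and is built on moved in opposite directions. All 13 mRNAs encoded in mitochondrial DNA fell, beside 41.4% of all genes, with a median log2 fold change of -4.32. Their share of all counts went from 3.45% ± 0.114 to 0.200% ± 0.0122 (SD, n = 3 each). Mt-nd3 fell from 6085, 5851 and 5999 to 117, 79.8 and 86.6 normalized counts (-5.98), and Mt-atp8 fell least (-1.11). Both mitochondrial ribosomal RNA rows rose (3.00 and 3.15), beside 39.4% of all genes. The libraries were selected for poly(A), however, so levels of these RNAs rest on the tailed molecules.

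**Figure D4:**
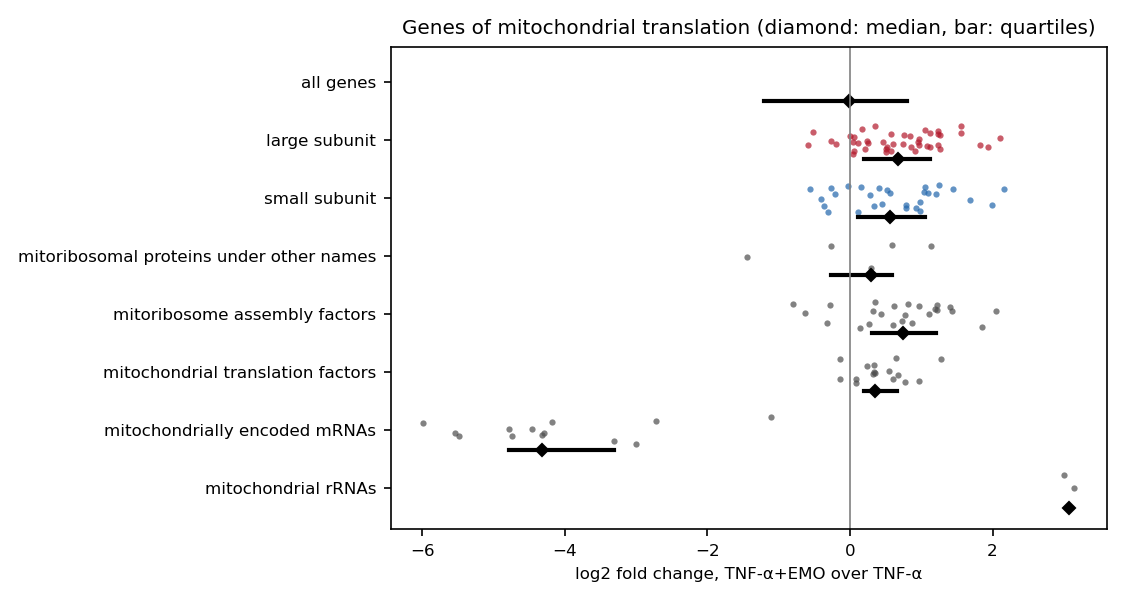
Log2 fold change of TNF-α+EMO over TNF-α for each tested gene (points) of the large and small subunits, the mitoribosomal proteins under other names, assembly factors, translation factors, mitochondrially encoded mRNAs and mitochondrial rRNAs, with the median (diamond) and quartiles (bar) under each row. For all genes the median and quartiles alone are drawn. The medians of the subunits are 0.67 and 0.57, and that of the mitochondrially encoded mRNAs is -4.32.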

How the data were processed

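Per the labels and the study's methods, poly(A)-selected paired-end libraries of 6 RA-FLS samples were sequenced, and reads were aligned with HISAT2. The submitters' processing notes also name FastQC, Trimmomatic and the build Rnor_6.0. The counter, its strand setting and the annotation version are not given in the sources used here. The library kit named does not mark strand, so reads of overlapping genes are uncertain. The authors deposited raw counts per gene, without normalization, and these were used. The deposited FPKM values and the authors' own comparison of the groups (fold changes and p-values) were not used. Groups came from the sample titles.

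A gene entered the test with 10 or more counts in 3 or more libraries, which left 13614. The fit used edgeR 4.0.16 under R 4.3.3 (TMM scaling, robust quasi-likelihood F test, no covariate), and p-values were adjusted by Benjamini and Hochberg's method over every gene tested. A positive log2 fold change is higher with EMO, and its standard error was taken as its absolute value over the root of F. A gene was called at an adjusted p under 0.05. The smallest p of an exact permutation test in this design is 0.1. Depth was 16813322 to 17794455 counts per library, and counting error is that of reads, which are not independent molecules. DESeq2 1.42.0, other scalings, filters and call rules, a replicate block and leaving out each library were alternatives. The fit was also run on simulated counts with few changed genes and a common dispersion, unlike these data, and no result rests on that run.

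The members and lists were chosen with earlier results of these data known. The genes named were the 5 highest and 5 lowest log2 fold changes of each subunit with a mean of at least 50 normalized counts, the 2 highest levels per kilobase of each subunit, genes named for their role, and the 2 highest and 2 lowest of each further list. Rows the name rule misses, the overlapping and neighbouring genes, the departures of replicate 3 and the other genes named by role group or call were chosen after their values were seen. Motifs were searched on both strands of RefSeq promoters of GRCr8. Single genes of some lists were not analysed here. The replicate numbers of the titles did not pair the libraries (correlation of deviations of same-numbered libraries 0.020, -0.001 and 0.057).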

Additional observations from a re-analysis of the deposited data

How the results depend on the processing

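The count of genes higher with EMO was 45 to 52 and that of genes lower with EMO 5 to 10 over the other tests, scalings, filters on low counts and left-out libraries. With each library left out in turn, lower calls ranged from 5 to 10, higher calls from 46 to 52, the median log2 fold change from 0.554 to 0.685, and the difference of the subunit medians from -0.0778 to 0.159, with the lowest and the 10 lower calls coming without TNF-α+EMO replicate 3. In those fits Mrpl18 ranged from -0.0568 to 0.0758 and Mrpl45 from -0.0057 to 0.107. A fold change threshold of 1 left 22 higher and 0 lower calls. With subunits by structure the difference of medians was 0.204 and the shift of the log2 ratio 0.207. With subunits by name and each library left out, which was added after seeing the data, that shift ranged from 0.107 to 0.152. It was 0.0471 without scaling by length and 0.0622 from median log2 levels. With the 4 rows missed by the name rule, an alternative added after seeing the data, the median was 0.751 and the difference of medians 0.231. Leaving out genes that overlap any other gene in the count table, also added later, gave 42 higher and 6 lower calls among the 62 genes left. Under library totals the median of all genes moved to -0.12, 45 genes were higher and 9 lower, and Mrpl45 turned to -0.0514. Over 13 alternative fits of 37 named genes (481 values), 443 kept direction and call, 25 lost the call, 9 gained it and 4 turned. The cause of these changes was not tested.

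With the replicate block, 52 genes were higher and 6 lower, with a median of 0.605 and a difference of subunit medians of 0.103, and no call of a named gene changed. Same-numbered libraries did not deviate together. Depth limits Mrpl36, Mrpl53 and both Mrps21l rows, whose counts were too few to show a difference.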
